A study of Mus musculus with 17 samples.

Results

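Transcripts of 10 circadian clock genes were measured by RNA sequencing in microvessels isolated from mouse cerebral cortex. The members were Per1, Per2, Per3, Cry1, Arntl (also called Bmal1), Npas2, Dbp, Tef, Nr1d1 and Ciart. They were found by their symbols among the 42687 genes of the count table, and all 10 were also among the 18753 genes with enough counts to be tested. The mice were 10 to 11 months old and either wild type (WT) or transgenic for APP/PS1, a model in which amyloid accumulates in the brain. All mice received a peptide by intraperitoneal injection of 10 mg/kg at intervals of 2 days for 2 weeks. Treated mice got gp91-ds-tat, which blocks the superoxide-producing enzyme NOX2, and the others got its control, sgp91-ds-tat. The groups were WT with control peptide (WT_SC, 5 libraries), WT with inhibitor (WT_NOX2, 5), APP/PS1 with control peptide (APP_SC, 2) and APP/PS1 with inhibitor (APP_NOX2, 5). In the sample labels APP stands for the genotype, and NOX2 and SC were read as inhibitor and control. The replicate numbers used below were given within each group in the order of the samples. They are not from the labels and pair no libraries. The tissue was the ipsilateral cortex after surgery, but which surgery, the time of day of collection, sex, the promoters of the transgenes and whether each library came from a single mouse are not given in the sources used here.

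The circadian clock is a transcriptional feedback loop that runs with a period of about a day in nearly every cell type, brain endothelial cells included. ARNTL pairs with CLOCK or its paralogue NPAS2 and switches on genes through E-box sequences. PER and CRY proteins, and CIART, repress that pair. NR1D1 (REV-ERBα) is induced by the pair and represses Arntl and Npas2 through ROR elements, so their transcripts peak in antiphase to Nr1d1. DBP and TEF are PAR-bZIP transcription factors that carry the rhythm to output genes, Per3 among them, through D-boxes. Per1 and Per2 are also induced by glucocorticoids and by neuronal activity. A library catches this cycle at a single moment, so rhythm itself was not measured here.

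The promoter stretches below are shown because they carry the letters of these elements in members that varied together between libraries. Windows from 250 bases before to 50 bases after each RefSeq transcription start (GRCm38.p6) were searched on both strands, and 9 of the 10 members had at least 1 window. The capitals mark the match. The E-box letters CACGTG were found in 5 of the 12 windows of the members (in 4 of the 9 genes), against 7.15% of 32851 windows of all genes, and Ciart held 3 matches, at -116, -58 and -44 from its start.
Ciart, chr3:95882252-95882379, minus strand, upstream of the gene: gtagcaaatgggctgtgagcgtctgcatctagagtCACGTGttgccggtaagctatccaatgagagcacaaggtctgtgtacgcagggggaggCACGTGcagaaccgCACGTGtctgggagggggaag
Tef, chr15:81811241-81811316, plus strand, intron before an internal start: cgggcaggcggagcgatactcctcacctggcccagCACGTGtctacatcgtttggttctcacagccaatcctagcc
Per1, chr11:69098748-69098823, plus strand, intron before an internal start: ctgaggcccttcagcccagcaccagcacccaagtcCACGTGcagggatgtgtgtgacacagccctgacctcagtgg
Cry1, chr10:85185074-85185149, minus strand, upstream of the gene: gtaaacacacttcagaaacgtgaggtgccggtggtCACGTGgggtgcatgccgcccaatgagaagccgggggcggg

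The D-box letters TTATGTAA or TTACGTAA were found in 1.06% of windows, and among the members in Per3, with matches at -205 and -158. The core of the ROR element, TAGGTCA or TGGGTCA, was found in 6.45% of windows, and among the members in Arntl, at 31 bases after the start in the 5′ untranslated part of its first exon. The cAMP response element TGACGTCA was in 1.79% of windows and in 0 members. A match is a description of these letters, and it shows no binding.
Per3, chr4:151044781-151044905, minus strand, upstream of the gene in an intron of Camta1: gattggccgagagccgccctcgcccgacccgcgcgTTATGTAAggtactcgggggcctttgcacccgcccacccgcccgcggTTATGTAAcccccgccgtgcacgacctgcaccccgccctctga
Arntl, chr7:113207530-113207558, plus strand, first exon: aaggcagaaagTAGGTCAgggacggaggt

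Library depth ran from 7316503 to 17862965 assigned counts (median 11342154). Of 136 pairs of libraries 0 held identical values, and the chi-square per degree of freedom within groups was at least 5.04, so each library was counted as 1 replicate. Since nothing says that libraries came from separate mice, p-values measure the spread between these libraries, which may be technical in part. All 6 endothelial, 5 pericyte and 5 astrocyte markers were detected in every library, the cell types that the labels name. Neuron markers were in every library too, with a summed level of 2420 to 4100 CPM (counts relative to the TMM-scaled library size) against 1990 to 3620 CPM for the endothelial markers, and choroid plexus markers ranged from 25.3 to 7990 CPM. In such bulk samples, fewer cells of a type and less RNA per cell cannot be told apart.

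Scaled to exon length, Nr1d1 had the highest median, 39.4 CPM per kilobase over the 17 libraries (range 28.2 to 56.5). It was the highest member in 16 of 17 libraries, with Per1 above it in WT_NOX2 replicate 3 (38.3 against 31.0 CPM per kilobase), and its range overlapped those of Per1, Tef and Dbp. Per1 followed at 25.8, Tef at 23.6 and Dbp at 22.4 CPM per kilobase and these 3 did not differ beyond the spread of their libraries, which ran from 14.9 to 47.3 for Per1, from 18.1 to 30.5 for Tef and from 9.08 to 29.5 for Dbp. Per3 had 14.8, Per2 10.7 and Npas2 8.68 CPM per kilobase. The lowest levels were those of Arntl at 6.27, Ciart at 5.84 and Cry1 at 4.16 CPM per kilobase, and Arntl and Ciart overlapped as well. Nr1d1 shares 263 exon bases with Thra and Dbp shares 539 with Sphk2, each on the opposite strand. Tef shares 193 bases with the antisense gene Gm17597 and Arntl 33 with Gm45355. Whether the counting used strand is not given in the sources used here, so part of these counts may belong to the other strand. The values below are CPM without length scaling and compare a gene only with itself.

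Arntl, the activating subunit of the loop, had 43.7, 53.0, 47.1, 38.5 and 59.9 CPM in WT_SC and 50.5, 58.3, 47.4, 50.5 and 54.4 CPM in WT_NOX2. It had 37.6 and 45.8 CPM in APP_SC and 70.1, 41.7, 39.5, 44.7 and 39.6 CPM in APP_NOX2. The highest level of all 17 was in APP_NOX2 replicate 1, the other APP/PS1 libraries lay at or below 45.8 CPM, and the 2 genotypes overlapped. The 2 APP_SC libraries lay below all 5 WT_NOX2 libraries, groups that differ in both genotype and peptide. Npas2, which can stand in for CLOCK as the partner of ARNTL, ranged from 32.5 CPM in APP_NOX2 replicate 2 to 53.0 CPM in APP_NOX2 replicate 1, so both of its extremes fell in the same group.

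Dbp, a direct target of the ARNTL pair with a steep daily rhythm in most tissues, had 48.4, 52.3, 83.9, 82.2 and 58.7 CPM in WT_SC and 78.8, 36.7, 49.5, 82.2 and 67.0 CPM in WT_NOX2. It had 68.5 and 80.5 CPM in APP_SC and 27.2, 88.4, 59.6, 54.8 and 70.0 CPM in APP_NOX2. The lowest and the highest library of the study were both in APP_NOX2, and all 4 groups overlapped. Tef, its PAR-bZIP relative, ranged from 142 CPM in APP_NOX2 replicate 1 to 240 CPM in WT_NOX2 replicate 3.

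Nr1d1, the nuclear receptor that represses Arntl, had 157, 86.7, 138, 157 and 89.4 CPM in WT_SC and 132, 95.9, 95.3, 121 and 121 CPM in WT_NOX2. It had 154 and 128 CPM in APP_SC and 93.4, 174, 87.7, 97.7 and 133 CPM in APP_NOX2. WT_SC by itself spanned most of the range, with 3 libraries near the top and 2 near the bottom, and the groups overlapped. Ciart, a repressor of the ARNTL pair, ranged from 7.83 CPM in APP_NOX2 replicate 1 to 20.4 CPM in APP_SC replicate 1.

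Per1, a negative limb gene that is also acutely inducible, had 266, 83.7, 130, 146 and 113 CPM in WT_SC and 101, 162, 216, 92.1 and 135 CPM in WT_NOX2. It had 203 and 123 CPM in APP_SC and 150, 158, 153, 108 and 179 CPM in APP_NOX2. WT_SC held both the lowest and the highest library, and the groups overlapped.

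Per2, its paralogue, had 91.9, 49.97, 52.8, 59.0 and 58.2 CPM in WT_SC and 62.8, 89.4, 90.2, 50.2 and 45.2 CPM in WT_NOX2. It had 114 and 50.1 CPM in APP_SC and 82.3, 60.7, 116, 73.0 and 94.0 CPM in APP_NOX2. The 2 libraries with the most Per2 were both from APP/PS1 mice, but the genotypes overlapped between 50.1 and 91.9 CPM. Per3 ranged from 103 CPM in WT_NOX2 replicate 2 to 195 CPM in WT_NOX2 replicate 3, and Cry1, a partner of the PER proteins, from 10.6 CPM in WT_NOX2 replicate 5 to 19.7 CPM in APP_NOX2 replicate 5.

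**Figure D1:**
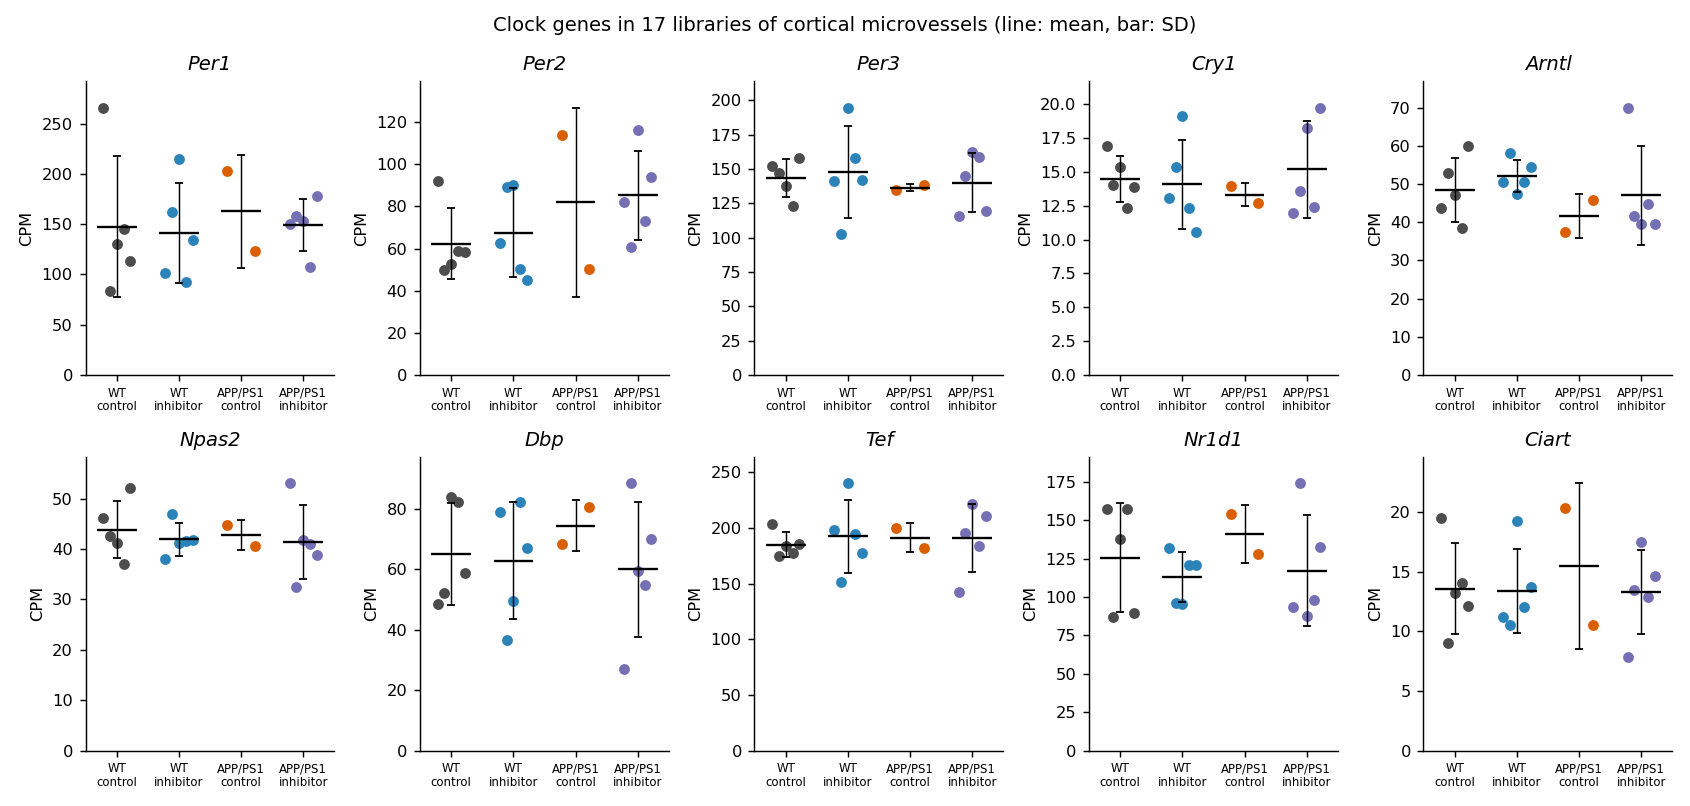
Level of each of the 10 clock genes in CPM (vertical axes, starting at 0) in every library, by group (horizontal axis); points are libraries and bars are group means with SD. Every pair of groups overlaps for every gene except WT_NOX2 and APP_SC for Arntl, and Per1 spans 83.7 to 266 CPM within WT_SC.

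The first question was whether clock genes differed by genotype or by NOX2 inhibition, and no member did so past the threshold. By the quasi-likelihood test of edgeR, adjusted over all genes by Benjamini-Hochberg, 0 of 10 members were called at 0.05 in any of 8 comparisons, and 0 reached an unadjusted p under 0.05. The share of all genes called was 0.267% for any difference between the 4 groups, 0.587% for genotype over both peptides, 0.0533% for genotype with control peptide and 0.181% for genotype with inhibitor. It was 0% for inhibitor over both genotypes, for inhibitor in WT, for inhibitor in APP/PS1 and for the interaction. At shares this low, 0 of 10 members is close to the background. At an unadjusted p under 0.05, 1184 of all genes passed for genotype and 390 for the inhibitor over both genotypes.

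Over both peptides, 7 of 10 members were higher in APP/PS1 and 3 lower, with a median log2 change of 0.03 against 0.00 over all genes. Per2 was the member with the smallest p. Its log2 change was 0.35 ± 0.20 (SE, 7 APP/PS1 against 10 WT libraries), with an unadjusted p of 0.087 and an adjusted p of 0.85 by edgeR. With APP_SC replicate 1 left out it was 0.18, and with APP_SC replicate 2 left out it was 0.47, so the 2 libraries of that group pull it in opposite directions. Arntl differed by -0.17 ± 0.12 on the log2 scale, with adjusted p = 0.912 by edgeR. Without APP_NOX2 replicate 1, the Arntl difference was -0.29 with an unadjusted p of 0.00366 and an adjusted p of 0.262, so that library moved the value by over 1.5 times and left it short of the threshold. Per1 (0.10 ± 0.22), Nr1d1 (0.09 ± 0.16) and Dbp (0.03 ± 0.21) differed by less than their standard errors. Dbp turned negative without any 1 of 5 libraries, and was lowest, at -0.07, without APP_NOX2 replicate 2. Nr1d1 went to -0.02 without APP_NOX2 replicate 2, and Per1 to 0 without APP_SC replicate 1.

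For the inhibitor over both genotypes, 5 members were higher and 5 lower, with log2 changes between -0.20 and 0.14. Nr1d1 was at -0.20 ± 0.16 and Dbp at -0.15 ± 0.21, while Arntl was at 0.14 ± 0.12. Their adjusted p was 1 by edgeR in each case. Leaving out single libraries gave Dbp between -0.23 (without WT_NOX2 replicate 4) and -0.07 (without WT_NOX2 replicate 2), and Arntl between 0.06 (without APP_NOX2 replicate 1) and 0.19 (without WT_SC replicate 5). Per1 (-0.09 ± 0.22) and Per2 (0.09 ± 0.20) differed by less than their standard errors, and went to 0.10 without WT_SC replicate 1 and to -0.03 without APP_SC replicate 2, respectively. In APP/PS1 mice alone, where the control peptide has 2 libraries, the members lay between -0.31 (Dbp) and 0.18 on the log2 scale. The interaction of genotype and inhibitor gave members between -0.26 and 0.22, with standard errors of up to 0.47 for Per1. These errors leave room for differences of the size of the Per2 value.

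**Figure D2:**
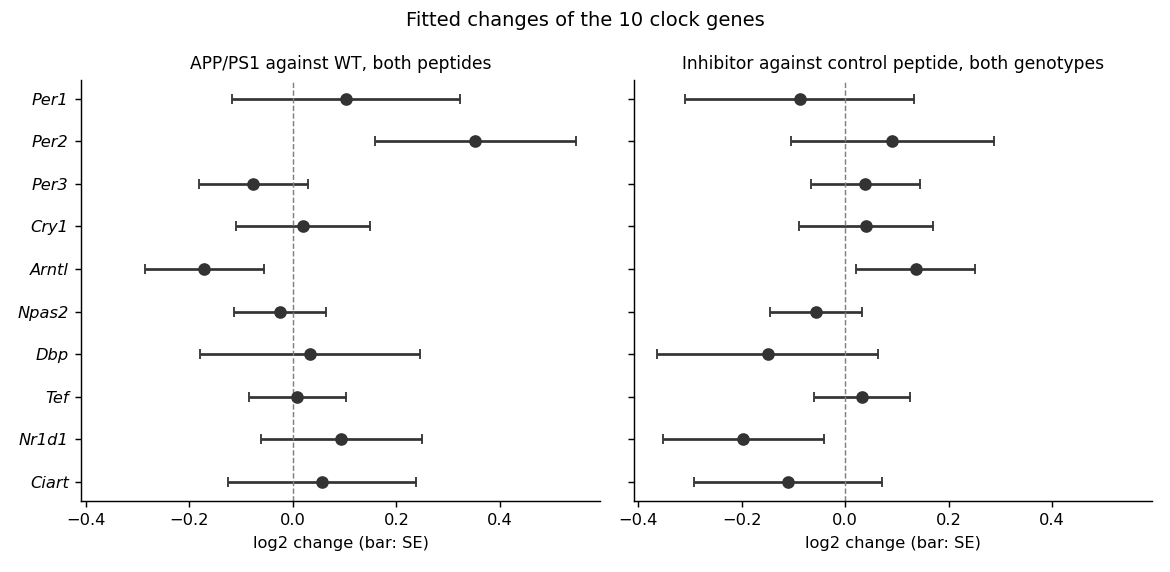
Log2 change of each clock gene (points, with standard error bars) for genotype over both peptides and for inhibitor over both genotypes, from edgeR; the dashed line marks no change. Per2 is the farthest from 0 for genotype at 0.35 ± 0.20, and 0 of 10 members pass the threshold in either panel.

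The wider clock machinery gave a similar count. Of 18 further clock genes, 0 passed in any of the comparisons, and of 12 clock output genes, 0 passed. Bhlhe41, a repressor that competes for E-boxes, had the smallest p of the clock genes for genotype, with a log2 change of 0.25 ± 0.07 (unadjusted p 0.00272, adjusted p 0.222 by edgeR). Usp2, a rhythmic ubiquitin protease, had the smallest p of the output genes for the inhibitor, with a log2 change of -0.19 ± 0.08 (unadjusted p 0.0211, adjusted p = 1 by edgeR).

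The spread between libraries of a same group was wide for some members. Around the group means, Dbp had an SD of 0.493 on the log2 scale, larger than that of 87.2% of all genes and of 98.8% of 2574 genes of like level. Per1 had an SD of 0.485 and Per2 of 0.441, larger than 99% and 98% of genes of like level. Nr1d1 had 0.356 and Ciart 0.417. Counting error alone gives an SD of 0.033 for Per1, 0.037 for Nr1d1, 0.048 for Per2 and 0.053 for Dbp, and of 0.111 for Ciart, whose counts were as low as 86 in a library. At the other end, Npas2 had an SD of 0.185, Tef of 0.201, Per3 of 0.237 and Arntl of 0.251, and the other 6 of 10 members lay above the median of 0.252 of all genes. Against genes of like level these were not narrow. Npas2 exceeded 54.6% of such genes, Tef 64.7%, Arntl 79.1% and Per3 80.5%. The highest library exceeded the lowest 3.25-fold for Dbp, 3.18-fold for Per1 and 2.6-fold for Ciart, but 1.63-fold for Npas2.

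Some pairs of members varied together. Over the 17 libraries, 12 of the 45 pairs of members were correlated past the threshold, 8 positively and 4 negatively (Pearson's r of log2 CPM, permutation test, two-sided, Benjamini-Hochberg adjustment over the 45 pairs). Without adjustment, 17 pairs had p under 0.05. As background, an r of at least 0.6 in size was found in 26.7% of the member pairs, and between a member and all other genes in 1.29% (Ciart) to 9.8% (Npas2) of cases, with a mean of 5.44% over the members. Among the 5 members with the widest spread, the pairs that passed were Per1 with Per2, Per1 with Ciart and Dbp with Nr1d1. By Spearman's rho, 5 pairs passed, all of them among the 12. They were Per1 with Per2, Per1 with Ciart, Arntl with Ciart, Npas2 with Dbp, and Tef with Ciart. For the pairs below, a p-value given after r and rho is that of r. The correlations are over libraries of 4 groups, and after the group means were removed 14 pairs passed, with all 12 among them. The deviations were permuted freely over the 17 libraries, which makes no allowance for the means removed. The p-values after such a removal therefore run too small, and the rise in the count is not a result.

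The 4 negative pairs each joined the activator Arntl or Npas2 to a gene that the ARNTL pair switches on. Apart from Arntl with Npas2, no other pair holding either of them passed. With Arntl, r was -0.36 for Per1, -0.32 for Per2, -0.18 for Per3 and -0.37 for Cry1. With Npas2, r was 0.08 for Per1, 0.23 for Per2, -0.14 for Per3 and -0.03 for Cry1. It was -0.43 for Npas2 with Tef and -0.22 for Npas2 with Ciart. Nr1d1, which represses both, did not pass with Arntl (r = -0.58, rho -0.59, adjusted permutation p 0.0538) or with Npas2 (r = -0.55, rho -0.50, adjusted permutation p 0.0618). Without the 2 libraries farthest from the median of Arntl or of Npas2, these r were -0.47 and -0.35. After the group means were removed, they were -0.56 and -0.64 (adjusted permutation p 0.0506 and 0.0221, too small for the reason above). Npas2 with Dbp had r = -0.74 (rho -0.71, permutation p 0.00062, adjusted 0.0139), and without the 2 libraries farthest from the median of Npas2 r was -0.57. Arntl with Ciart had r = -0.72 (rho -0.71, permutation p 0.0011, adjusted 0.0149) and -0.62 without the 2 farthest. In APP_NOX2 replicate 1 Arntl and Npas2 were at their highest and Dbp, Tef and Ciart at their lowest. Arntl with Tef had r = -0.65 (rho -0.53, adjusted permutation p 0.0262) and Arntl with Dbp r = -0.61 (rho -0.43, adjusted permutation p 0.0387). By rho neither passed (adjusted permutation p 0.104 for Tef and 0.184 for Dbp). Without the 2 farthest libraries, APP_NOX2 replicate 1 and WT_SC replicate 5, the r with Dbp was -0.38 (permutation p 0.163), so that relation rests on those libraries. The r with Tef was -0.51 (permutation p 0.0518) without them, and -0.72 over all libraries after the group means were removed.

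Arntl and Npas2 themselves were positively related, with r = 0.65 (rho 0.54, adjusted permutation p 0.0262), but without the same 2 libraries r was 0.34 (permutation p 0.215). Among the genes on the other side of the loop, Tef with Ciart had the closest relation of the 45, r = 0.78 (rho 0.73, adjusted permutation p 0.0099) and 0.63 without the 2 farthest. Of all 18752 other genes tested, Tef ranked 2 in likeness to Ciart. Dbp with Nr1d1 had r = 0.62 (rho 0.57, adjusted permutation p 0.0321), and 0.59 without the 2 farthest, and Per3 with Tef r = 0.72 (rho 0.50, adjusted permutation p 0.0149). The Per3 relation was 0.46 (permutation p 0.0846) without WT_NOX2 replicates 2 and 3, the ends of its range.

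Per1 and Per2 formed a further pair, with r = 0.70 (rho 0.73, adjusted permutation p 0.0149) and 0.67 without the 2 farthest libraries. Per1 with Ciart had r = 0.68 (rho 0.69, adjusted permutation p 0.0198) and Per2 with Cry1 r = 0.65 (rho 0.60, adjusted permutation p 0.0262), and without the 2 farthest libraries 0.54 and 0.67. Cry1 with Tef had r = 0.60 (rho 0.62, adjusted permutation p 0.0388), and 0.42 (permutation p 0.124) without its 2 farthest libraries. Per1 with Dbp, both targets of the ARNTL pair, gave r = -0.25 (rho -0.27, adjusted permutation p 0.499), and Per2 with Nr1d1 gave r = -0.09 (rho 0.08, adjusted permutation p 0.787). Per2 with Dbp gave r = -0.43 (rho -0.36, adjusted permutation p 0.176), and -0.59 without the 2 farthest libraries. Dbp with Tef (r = 0.46) and with Ciart (r = 0.28) turned to -0.33 and -0.32 without APP_NOX2 replicate 1 and WT_NOX2 replicate 2. Leaving out any single library left 6 to 13 pairs past the threshold. The count was 6 without APP_NOX2 replicate 1, with 5 of the first 12 pairs among them, and r kept its sign in all 12. It was 7 without WT_NOX2 replicate 2, all among the first 12. These were the libraries with the lowest Dbp values, 27.2 and 36.7 CPM. APP_NOX2 replicate 1 also had the lowest mean log2 CPM of the pericyte markers (5.09, against up to 5.76) and of the oligodendrocyte markers (7.51, against up to 8.17), and the part of cell makeup in its values was not tested.

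**Figure D3:**
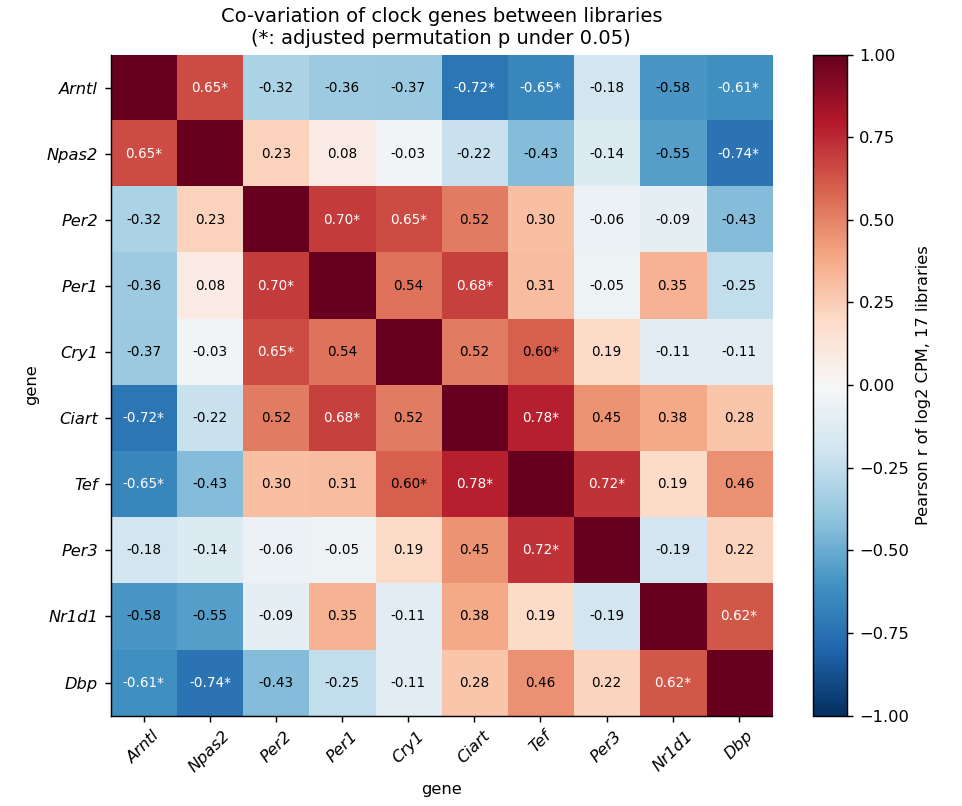
Pearson's r of log2 CPM over 17 libraries for each of the 45 pairs of clock genes; colour and number give r and an asterisk marks the pairs past the threshold. Arntl is negatively related to Ciart (-0.72), Tef and Dbp, and Npas2 to Dbp (-0.74), while Tef and Ciart reach 0.78.

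The order of the members in that plot comes from a principal component analysis of the 10 genes, which was chosen after the values were seen and is given as a description. The first component held 42.0% and the second 27.5% of the variance between libraries. Placed by their correlation with these 2 components, the members lay along part of a circle, at 14 degrees for Arntl, 51 for Npas2, 119 for Per2, 134 for Per1, 136 for Cry1, 166 for Ciart, 179 for Tef, 187 for Per3, 223 for Nr1d1 and 238 for Dbp. No member lay between 238 degrees and Arntl at 14. Per3 reached a distance of only 0.42 from the centre, where 1 is the most possible, and Nr1d1 0.70. The angle of Per3 is therefore poorly defined. The sense in which the circle is read and the gene it starts from are arbitrary. Read backwards from Npas2, it gives Npas2 and Arntl, then Dbp and Nr1d1, then Per3, Tef and Ciart, then Cry1, Per1 and Per2. Read backwards from Arntl, it puts Npas2 last, after Per2. In textbook accounts of peripheral tissues Arntl and Npas2 peak first, Nr1d1 and Dbp next, then Per1 and Per2, and Cry1 later still. The backward reading shares the coarse order, but it puts Dbp before Nr1d1 and Cry1 before Per1 and Per2. The forward reading, which is as valid, puts Per2, Per1 and Cry1 before Nr1d1 and Dbp. The likeness of either reading to the textbook order was not tested, and the libraries carry no time of day to set against it. In this plane the 5 libraries with the most Per2 and Ciart (WT_SC replicate 1, WT_NOX2 replicate 3, APP_SC replicate 1 and APP_NOX2 replicates 3 and 5) lay together, and they came from all 4 groups. The same genes help to define the plane. Per1 was less distinct, at 153 CPM in APP_NOX2 replicate 3 against 162 CPM in WT_NOX2 replicate 2.

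**Figure D4:**
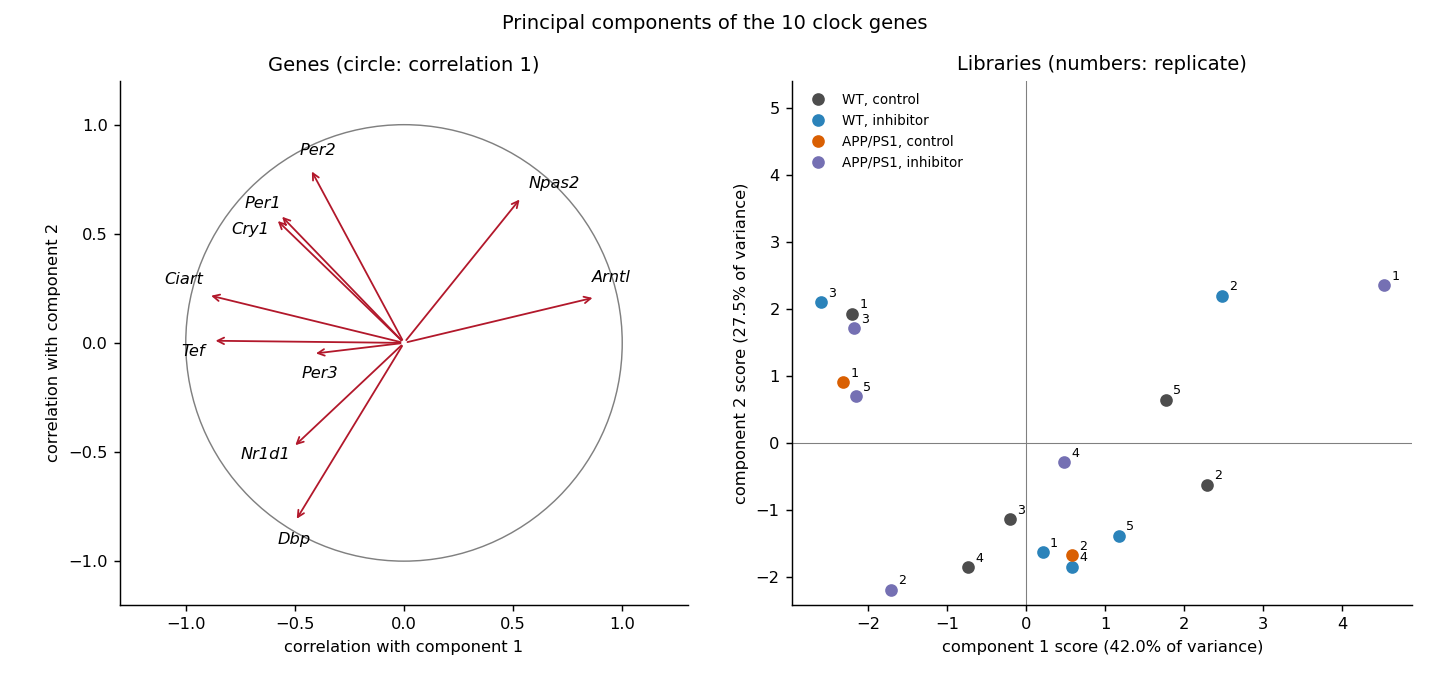
Left, correlation of each clock gene with the first 2 principal components (axes, correlation; grey circle, correlation of 1); right, scores of the 17 libraries, coloured by group and numbered by replicate. Genes spread over part of the circle, from Arntl at 14 degrees to Dbp at 238, and no group of libraries sits apart from the others.

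A single value per library was also computed, without the components. The mean deviation of Per1, Per2, Per3, Dbp, Tef, Nr1d1 and Ciart minus that of Arntl and Npas2 on the log2 scale, with Cry1 left aside, ran from -0.82 in APP_NOX2 replicate 1 to 0.47 in APP_SC replicate 1. It was 0.31, -0.44, 0.03, 0.31 and -0.46 in WT_SC and -0.01, -0.45, 0.27, -0.11 and -0.17 in WT_NOX2. APP_SC had 0.47 and -0.03, and APP_NOX2 had -0.82, 0.45, 0.32, -0.03 and 0.36. Each group held libraries on both sides of 0, and the group means, from -0.09 ± 0.26 in WT_NOX2 (SD, n = 5) to 0.22 ± 0.35 in APP_SC (SD, n = 2), lay within the SD of 0.40 inside groups. The range between the highest and the lowest library was 1.29, or 0.93 without APP_NOX2 replicate 1. Without Per1 and Per2, which also respond to stimuli, APP_NOX2 replicate 1 was still the lowest at -1.03 and the range was 1.55. The genes of the first set did not all vary together: r with Dbp was -0.25 for Per1 and -0.43 for Per2.

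The 30 further clock and output genes were set against the members in 300 relations, of which 38 passed the threshold (Pearson's r, permutation test with Benjamini-Hochberg adjustment over the 300). An r of at least 0.6 in size was found in 47 of the 300 (15.7%), 23 of the 180 with clock genes (12.8%) and 24 of the 120 with output genes (20%), beside the mean of 5.44% for all genes. The output count includes Tsc22d3, which is also in the glucocorticoid list, with r of 0.84 (Per1), 0.86 (Per2), 0.70 (Cry1) and 0.64 (Ciart). The closest relation of the 300 was with Nr1d2, the paralogue of Nr1d1 that represses Arntl through the same elements. Arntl with Nr1d2 had r = -0.89 (rho -0.84, adjusted permutation p 0.0015) and -0.83 without the 2 libraries farthest from the median, and Nr1d2 ranked lowest of the 18752 other genes in correlation with Arntl. Nr1d2 had 142, 108, 130, 148 and 109 CPM in WT_SC and 131, 109, 136, 133 and 111 CPM in WT_NOX2. It had 147 and 135 CPM in APP_SC and 88.1, 141, 148, 109 and 153 CPM in APP_NOX2. Where Nr1d2 was lowest, in APP_NOX2 replicate 1, Arntl was highest, and where Nr1d2 was at 147 CPM or above, Arntl was at or below 39.6 CPM. Nr1d2 was also positively related to Tef (r = 0.75, rho 0.68), Ciart (r = 0.72, rho 0.76) and Dbp (r = 0.67, rho 0.44), with adjusted permutation p of 0.011, 0.0154 and 0.0339. Without the 2 farthest libraries these r were 0.60, 0.53 and 0.42.

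Clock, which encodes the usual partner of ARNTL, went with Npas2 (r = 0.68, rho 0.50) and against Tef (r = -0.78, rho -0.66) and Dbp (r = -0.70, rho -0.42), but without the 2 farthest libraries these were 0.49, -0.47 and -0.23. Cry2, the paralogue of Cry1, was related to Per3 at r = 0.82 (rho 0.70, adjusted permutation p 0.0085), and at 0.68 without the 2 farthest. Hlf, the PAR-bZIP relative of Dbp and Tef, followed Per1 at r = 0.80 (rho 0.76, adjusted permutation p 0.0085), while its r with Dbp was -0.03 (adjusted permutation p 0.961). Bhlhe40, an inducible repressor at E-boxes, followed Per1 (r = 0.70, rho 0.82) and Per2 (r = 0.75, rho 0.78). Of the output genes, Mtss1 and Tspan4 followed Dbp (r = 0.75, rho 0.85, and r = 0.78, rho 0.58). Nampt, the rate-limiting enzyme of NAD salvage, followed Nr1d1 (r = 0.74, rho 0.68), and Wee1, a cell cycle kinase driven from E-boxes, followed Per2 (r = 0.79, rho 0.83). The adjusted permutation p of these relations of Bhlhe40 and the output genes was at most 0.0249. 

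The background differed between members. An r of at least 0.6 in size was reached with Npas2 by 9.8% of all genes, with Per1 by 8.78%, with Per2 by 7.81%, with Dbp by 7.09% and with Nr1d1 by 6.61%. It was reached with Per3 by 4.47%, with Arntl by 3.54%, with Cry1 by 3.27%, with Tef by 1.74% and with Ciart by 1.29%. Of the 9 other members, 4 each reached that size with Arntl and Tef, 3 each with Dbp and Ciart, 2 each with Per1, Per2, Cry1 and Npas2, and 1 each with Per3 and Nr1d1. For Npas2 and Per3 the median size of r with the other members, 0.23 and 0.19, was below that with all genes, 0.28 and 0.24. Of the 18 clock genes, 4 each reached it with Per2 and Per3 and 0 with Cry1, and of the 12 output genes, 5 reached it with Npas2, 4 with Dbp and 0 with Per3.

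Per1 and Per2 moved with genes of another kind. The mean log2 level of 13 glucocorticoid-responsive genes was related to Per1 at r = 0.87 (rho 0.82, permutation p 3e-05, adjusted 0.0042 over 140 relations of members with marker lists and depth), and at 0.77 without the 2 farthest libraries. For Per2 it was r = 0.71 (rho 0.80, adjusted permutation p 0.0434). The mean of 15 immediate early genes, which neurons and vessels switch on within minutes of a stimulus, was related to Per1 at r = 0.74 (rho 0.78, adjusted permutation p 0.042). Per2 did not pass with that mean, at r = 0.67 (rho 0.70, adjusted permutation p 0.0616). Of all genes, 8.2% reached 0.6 in size with the glucocorticoid mean and 6.73% with the immediate early mean. Tsc22d3, the glucocorticoid-induced gene also known as Gilz, which stands in both the output and the glucocorticoid list, had r = 0.84 (rho 0.84) with Per1 and 0.86 (rho 0.91) with Per2, with adjusted permutation p of 0.002 and 0.0015. The libraries with the highest glucocorticoid means, WT_SC replicate 1 and WT_NOX2 replicate 3, had the highest Per1 levels, 266 and 216 CPM. When the 2 means were removed by regression, the correlation of Per1 with Per2 went from 0.70 to -0.11.

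Depth and cell makeup moved with some members too, as they did with many genes. An r of at least 0.6 in size was reached with log2 total counts by 10.2% of all genes, with the endothelial mean by 14.1% and with the pericyte mean by 14.5%. Per1 was related to the log2 total count of the library at r = 0.73 (rho 0.70, adjusted permutation p 0.042), and at 0.57 without the 2 farthest libraries, and WT_SC replicate 1 had both the most counts and the most Per1. After log2 total counts were removed, 17 pairs of members passed, with all 12 among them. Nr1d1 was related to the mean of the endothelial markers at r = 0.72 (rho 0.67, adjusted permutation p 0.0437), and at 0.69 without the 2 farthest, and 0 members passed with the neuron markers or the other cell type lists. For Dbp, Nr1d1 and Npas2, r with the pericyte markers was 0.62, 0.68 and -0.68 (adjusted permutation p 0.093, 0.0616 and 0.0525). For Dbp and Npas2, r with the endothelial markers was 0.53 and -0.62 (adjusted permutation p 0.178 and 0.093). After the neuron and endothelial means were removed, 9 pairs passed, 8 of them among the 12. The part of depth, glucocorticoid-responsive genes and cell makeup in these relations was not tested beyond these values.

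**Figure D5:**
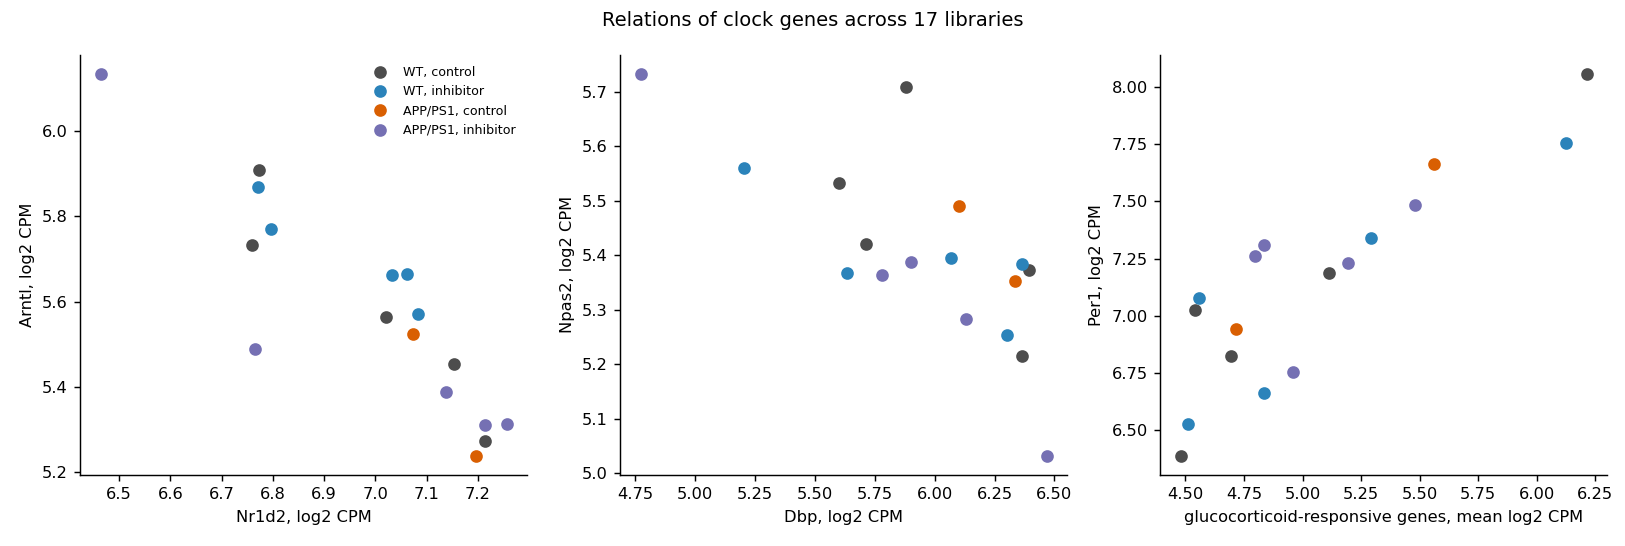
Each point is a library, coloured by group; from left, Arntl against Nr1d2, Npas2 against Dbp, and Per1 against the mean of 13 glucocorticoid-responsive genes, all in log2 CPM. Arntl falls along Nr1d2 (r = -0.89), Npas2 along Dbp (r = -0.74), and Per1 rises along the glucocorticoid-responsive genes (r = 0.87), with libraries of all 4 groups along each line.

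The genes most like each of 3 members over the 17 libraries were read from all genes tested. For Per1 these were Ccn2, Cpm and Dusp1 (r = 0.90 each), Ankrd13a, Sik1 and Rpl32 (0.88), and Fam107a, Gimap6, Rpl14 and Tob2 (0.87). Dusp1, a phosphatase, is in the immediate early list as well, and Sik1 encodes an inducible kinase. For Dbp they were Kctd12b (r = 0.85), Pigk, Psmb10, Rps6ka1, Aco1 and Sypl (0.84), and Cmtm8, Tbxa2r, St8sia4 and Plscr1 (0.83). For Arntl they were Chd5 and Usp11 (r = 0.83), Ppfia3, Cit and Dzip1 (0.81), Rfx1 (0.80), L3mbtl1 (0.78), Gga3 (0.77) and 2 predicted genes. At the other end of the Arntl order, Nr1d2 (r = -0.89) was followed by Oaf and Cd9 (-0.82), Slc48a1 (-0.80) and Ndufs7 (-0.79). Dbp was most opposed by Mrtfa and Zfp78 (r = -0.88), Cpne6 (-0.86), and Cnot3 and Epb41l4b (-0.85), and Per1 by Trappc12 and Ankrd42 (-0.86), Fbn2 (-0.85) and 2 predicted or unnamed transcripts. No p-value is given for these extremes of the 18752 genes.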

How the data were processed

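The deposited table holds unnormalised counts for Ensembl gene IDs, whole numbers that sum to 7316503 to 17862965 per library. Per the submitters' processing notes, the tools were cutadapt, STAR, HTSeq and DESeq2 and the builds GRCh37 and mm10, with no version or role. Libraries were made with a stranded kit after depletion of ribosomal RNA, per the labels' protocols. The 20 columns of the table that match no sample were not used. Symbols came from GENCODE vM21 (42250 of 42687 IDs), and coordinates from GENCODE vM21 and RefSeq are on GRCm38.

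In R 4.3.3, edgeR 4.0.16 was used with TMM scaling, filterByExpr and robust quasi-likelihood F tests over all 17 libraries. Benjamini-Hochberg adjustment ran over 18753 genes, with a threshold of 0.05. The model of 4 group means gave the comparisons within a peptide or genotype, the interaction and the test of any difference, and an additive model gave genotype and inhibitor overall. Log2 CPM used a prior count of 2. Correlations were computed with numpy 2.4.6 and scipy 1.17.1, with two-sided permutation tests of 100000 resamples. Where group means, marker means or total counts had been removed first, the remaining values were permuted freely. Those p-values run too small, and so the counts of pairs passing there run too high. Genes of like level were those within 0.5 of the mean log2 level. Exon length is the union of a gene's exons. Scripts were tested on simulated data.

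The members and gene lists were chosen with earlier results of these data known. Named beyond the members were the further clock and output genes with the smallest p or with a relation to a member, and the 10 genes of highest and 5 of lowest r with Per1, Arntl and Dbp. Relations to members other than Dbp were picked for naming after their values were seen. The alternatives were DESeq2 size factors, no filter, DESeq2 1.42.0, marker covariates, a prior count of 0.5, deviations from group means and leaving out each library. The glucocorticoid covariate, the regressions on marker means and on total counts, the principal components and the promoter search were added after seeing the data.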

Additional observations from a re-analysis of the deposited data

Results flagged for a closer look

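In 33 sets of values of a member or of the clock difference within a group of 5 libraries, the gap of the highest or lowest library to its neighbour was set against Dixon's critical value of 0.71, and 2 sets exceeded it, where 1.65 are expected at 1 in 20. Per2 in WT_SC replicate 1 was at 6.52 log2 CPM, with the other 4 libraries of that group between 5.65 and 5.89 (ratio 0.726). The same library had the most counts, the highest Per1 and the highest mean of glucocorticoid-responsive genes. Arntl in APP_NOX2 replicate 1 was at 6.13 log2 CPM, with the others between 5.31 and 5.49 (ratio 0.784). That library also had the lowest Dbp, Tef, Ciart and Nr1d2 and the highest Npas2 of all 17. Its cell makeup stood at an end as well: the mean log2 level of the pericyte markers (5.09, others up to 5.76) and of the oligodendrocyte markers (7.51, others up to 8.17) was the lowest of the 17, that of the endothelial markers (8.24) ranked 2 from the lowest, and those of the neutrophil (1.05) and smooth muscle markers (5.14) ranked 3 from the highest. The part of these markers in the result was not tested. Values without each library stand beside the results they move.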

How the results depend on the processing

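Members called past the threshold numbered 0 in all 8 comparisons under every alternative run, the tests without single libraries included. The counts over all genes moved more: with DESeq2 in place of edgeR they were 105 for any difference (50 with edgeR), 182 for genotype (110), 45 for genotype with control peptide (10) and 61 for genotype with inhibitor (34). With the endothelial covariate they were 83, 170, 32 and 64, and genotype with control peptide gave 17 without a filter and 18 with the neuron covariate. The genotype change of Per2 had an unadjusted p of 0.0129 with the glucocorticoid covariate and 0.0475 with the neuron covariate. The inhibitor change of Per1 turned to 0.055 with the neuron covariate.

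Without single libraries, the genotype change was 0 to 0.228 for Per1, -0.074 to 0.149 for Dbp and -0.02 to 0.15 for Nr1d1, and the inhibitor change was -0.213 to 0.104 for Per1 and -0.03 to 0.264 for Per2. Related pairs numbered 6 to 13, and without APP_NOX2 replicate 1 only 5 of the first 12 still passed. With the glucocorticoid and immediate early means removed, 12 pairs passed, 8 of them among the first 12, and Per1 with Per2 had r = -0.11. The causes were not tested. APP_SC has 2 libraries, so without either the other is assumed to vary like the other groups. No paired analysis was possible because the labels give no replicate numbers or shared animals, litters or days. Low counts limit Ciart and Cry1, down to 86 and 95 counts in a library.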
